A study of Mus musculus with 10 samples.

Results

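The melanocyte pigmentation genes are the enzymes, melanosome proteins, transporters and regulator by which a pigment cell makes melanin, and 10 of them were followed here by gene symbol: Tyr, Tyrp1, Dct, Pmel, Mlana, Mitf, Oca2, Slc45a2, Slc24a5 and Gpr143. Every probe set whose platform annotation gave exactly 1 symbol from this list was taken, which gave 15 probe sets of 9 genes among 45037 probe sets of 18193 named genes. Tyr and Tyrp1 had 3 probe sets each, Mitf and Slc45a2 had 2 each, and the other 5 measured genes had 1. No probe set carried Slc24a5, an ion exchanger of the melanosome, as its only symbol, so that gene was not analysed here.

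The arrays measured RNA from whole skin biopsies of C3H/HeJ mice, an agouti strain, in the grafted model of alopecia areata, an autoimmune hair loss in which cytotoxic T cells attack the growing follicle. All mice were young adults that had received alopecic skin from an affected C3H/HeJ donor, and all were sampled at week 12. One group of 5 arrays came from mice given systemic baricitinib, a JAK1/2 inhibitor, from the time of grafting (B1 to B5), and the other 5 came from mice given vehicle in the same way (V1 to V5); the drug or placebo was delivered by an implanted osmotic pump. Values are deposited log2 intensities after RMA normalization. Per the methods of the study, each group was 5 mice, so p-values measure the spread between mice.

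Across all probe sets, 9 of the 10 arrays correlated at r of 0.946 to 0.994 with each other, whereas V5 correlated at 0.697 to 0.729 with the rest and had a narrower spread (SD 2.28, against 2.71 to 2.79). The mean 3′ minus 5′ signal of the array's beta-actin and Gapdh controls, a gap that widens as RNA degrades, was 0.99 to 1.18 log2 units in B1 to B5, against 3.03, 2.0, 4.35, 1.01 and 4.06 in V1 to V5. The mean of the 6 cytotoxic T cell markers was 6.25 to 6.84 in B1 to B4 and 9.03 in B5, against 8.58 to 9.32 in V1 to V4 and 6.26 in V5. On this mean B5 and V5 each stood with the other group. Cd8a (10.02 in B5, 4.81 in V5) and Gzmb (9.69 in B5, 4.76 in V5) did so, but not every marker did. Cd8b1 was 5.43 in V5, within the 4.86 to 6.36 of V1 to V4. Prf1 was 7.74 in B5, within the 7.51 to 7.92 of B1 to B4. Values without V5 are therefore given beside the differences it moved by over 1.5 times. The methods of the study dropped 1 vehicle array of this experiment without naming it in the sources used here.

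Melanin is made in the melanosome, a lysosome-related organelle of the melanocyte, and in hair it is passed to the keratinocytes that build the shaft. Follicular melanocytes sit above the dermal papilla in the hair bulb and make pigment during the growth phase of the hair cycle, anagen, and stop when growth stops. Mitf, the basic helix-loop-helix leucine zipper factor of the lineage, binds short E-box elements, of which the longer M-box form TCATGTG is found before several pigment genes.

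Promoters are shown to let the enzymes be compared for this element. RefSeq windows of 250 bases before a listed start site (GRCm38.p6) were matched by symbol for 6 of the 10 genes, as 8 windows; Pmel, Mlana, Slc45a2 and Gpr143 are named only. The 3 melanogenic enzymes are printed, with Oca2 as a window without the element. Capitals mark TCATGTG or its reverse complement CACATGA, and each run reads 5′ to 3′ toward the start site.
Tyr, chr7:87493513-87493762, minus strand: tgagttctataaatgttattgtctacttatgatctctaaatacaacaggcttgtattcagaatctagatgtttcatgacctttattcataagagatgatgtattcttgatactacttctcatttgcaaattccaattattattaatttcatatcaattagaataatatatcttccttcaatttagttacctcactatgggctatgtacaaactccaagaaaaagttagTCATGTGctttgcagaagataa
Tyrp1, chr4:80833963-80834212, plus strand: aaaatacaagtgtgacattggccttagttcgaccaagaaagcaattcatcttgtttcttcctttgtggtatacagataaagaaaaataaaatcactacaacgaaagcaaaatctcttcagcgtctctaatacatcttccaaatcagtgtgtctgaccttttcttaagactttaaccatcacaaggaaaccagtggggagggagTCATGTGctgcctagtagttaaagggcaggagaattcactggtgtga
Dct, chr14:118052247-118052496, minus strand: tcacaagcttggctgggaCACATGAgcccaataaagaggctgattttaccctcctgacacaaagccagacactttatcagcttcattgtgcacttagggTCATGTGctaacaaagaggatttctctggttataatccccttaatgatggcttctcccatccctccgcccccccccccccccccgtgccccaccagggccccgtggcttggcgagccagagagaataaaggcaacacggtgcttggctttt
Oca2, chr7:56239509-56239758, plus strand: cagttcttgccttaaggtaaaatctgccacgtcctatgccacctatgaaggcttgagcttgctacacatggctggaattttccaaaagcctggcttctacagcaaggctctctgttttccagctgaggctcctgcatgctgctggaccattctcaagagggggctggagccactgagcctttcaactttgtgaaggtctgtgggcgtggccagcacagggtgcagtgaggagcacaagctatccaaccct
The match began 22 bases before the listed start in Tyr and 47 bases before it in Tyrp1. The listed starts of Tyrp1 and Oca2 lie inside their annotated genes, which begin at 80834123 and 56239593. Dct held 2 matches, 232 bases before the start on the opposite strand and 151 bases before it on the same strand. In all, 4 of the 8 windows held the element on either strand, namely these 3 and the window of Slc24a5, whereas 3.25% of all 32851 RefSeq promoter windows did. None of the 3 Mitf windows held it. The related element TCACGTG was in none of the 8 windows and in 3.13% of all windows, and the shorter CATGTG, which TCATGTG contains, was in 5 of the 8, Oca2 included, and in 12.3% of all windows. A match is a description of these letters and not a measurement of binding.

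The 3 enzymes of melanin synthesis varied more from array to array within a group than between groups. Tyr encodes tyrosinase, which catalyses the rate-limiting oxidation of tyrosine. Its probe set with the highest mean, 1417717_a_at, read 6.59, 9.79, 4.10, 4.51 and 7.74 in B1 to B5, against 3.91, 5.81, 4.80, 9.13 and 5.90 in V1 to V5. B2 and V4 were high, B3, B4 and V1 were low, and the groups overlapped over nearly their whole range. The group means were 6.54 ± 2.35 for baricitinib and 5.91 ± 1.97 for vehicle (SD, n = 5 each). The difference, baricitinib minus vehicle, was 0.63 ± 1.22 log2 units (SE), with an adjusted p of 0.761 by limma. The probe set 1456095_at followed the same order at its high end, with 5.18, 8.55, 4.31, 3.21 and 6.17 in B1 to B5, against 3.03, 5.34, 5.16, 7.44 and 4.93 in V1 to V5. Its difference was 0.30 ± 1.02 (adjusted p = 0.867 by limma). The dimmest, 1448821_at, averaged under 5 log2 units and read 2.89, 5.79, 2.58, 2.22 and 3.54 in B1 to B5, against 3.04, 2.76, 2.61, 4.97 and 6.85 in V1 to V5. Here V5 was the highest of all arrays, and the difference of -0.64 ± 0.93 was 0.06 ± 0.74 without V5.

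Tyrp1, tyrosinase-related protein 1, acts late in eumelanin synthesis in the mouse and stabilises tyrosinase. Its brightest probe set, 1415861_at, read 9.49, 11.89, 8.68, 8.62 and 9.28 in B1 to B5, against 8.24, 9.42, 9.0, 10.65 and 7.74 in V1 to V5. B2 stood above every other array, V4 came next, and V5 was lowest. Means were 9.59 ± 1.34 under baricitinib and 9.01 ± 1.12 under vehicle, a difference of 0.58 ± 0.70 (SE; adjusted p = 0.623 by limma), which was 0.26 ± 0.70 without V5. The probe set 1439409_x_at, whose suffix marks probes that may cross-hybridise, read 9.31, 11.66, 8.53, 8.39 and 9.0 in B1 to B5, against 8.37, 9.27, 8.82, 10.42 and 8.26 in V1 to V5. It had the same high arrays, and its difference of 0.35 ± 0.64 (adjusted p = 0.747 by limma) was 0.16 ± 0.67 without V5. The probe set 1415862_at had the widest range of all members and read 6.66, 9.74, 5.59, 5.70 and 6.67 in B1 to B5, against 4.11, 6.36, 4.22, 8.23 and 2.65 in V1 to V5. Its low values were V1, V3 and V5, the 3 arrays with the widest 3′ to 5′ gaps, and the part of RNA quality in its difference was not tested apart from the fit given below. That difference, 1.76 ± 1.10 (adjusted p = 0.430 by limma), was the largest of the 15, and was 1.14 ± 1.04 without V5.

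Dct, dopachrome tautomerase, converts dopachrome to the carboxylated precursor of eumelanin. It read 9.82, 12.02, 9.56, 9.37 and 9.76 in B1 to B5, against 8.86, 9.58, 9.18, 11.03 and 8.29 in V1 to V5. Apart from B2, the baricitinib arrays lay between 9.37 and 9.82, and V4 was again the high vehicle array. Means were 10.11 ± 1.08 under baricitinib and 9.39 ± 1.03 under vehicle. The difference of 0.72 ± 0.60 (SE; adjusted p = 0.506 by limma) was 0.44 ± 0.60 without V5.

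Pmel and Mlana encode structural proteins of the melanosome. Pmel, whose fragments form the amyloid fibrils on which melanin is laid down, read 7.61, 10.10, 6.94, 6.75 and 7.77 in B1 to B5, against 6.63, 7.44, 7.24, 9.10 and 5.93 in V1 to V5. It had the same high arrays, B2 and V4, and V5 was lowest. Its difference of 0.57 ± 0.72 (adjusted p = 0.639 by limma) was 0.23 ± 0.71 without V5. Mlana, also known as MART-1, is needed for the maturation of Pmel in human melanocytes. It read 9.31, 11.92, 8.07, 7.46 and 10.55 in B1 to B5, against 7.31, 8.99, 7.94, 11.37 and 5.29 in V1 to V5. B5 joined B2 and V4 at the high end, and V5 lay 2 units below any other array. The difference of 1.28 ± 1.15 (adjusted p = 0.524 by limma) was 0.56 ± 1.04 without V5.

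The melanosomal transporters and the ocular albinism receptor had lower mean signals than Dct, Pmel and Mlana, and each difference was smaller than its SE. Oca2, the pink-eyed dilution protein that conducts chloride and raises melanosomal pH, read 5.81, 8.82, 4.01, 4.07 and 5.81 in B1 to B5, against 4.31, 5.31, 5.48, 7.55 and 7.43 in V1 to V5. B3 and B4 were the lowest arrays, and V5 was as high as V4. The difference was -0.31 ± 0.97 (adjusted p = 0.854 by limma), and 0.04 ± 0.99 without V5. Slc45a2, the underwhite transporter, read 5.69, 8.24, 4.94, 4.78 and 7.32 in B1 to B5 on 1451055_at, against 5.15, 5.51, 5.47, 8.07 and 5.56 in V1 to V5. V4 stood alone among the vehicle arrays, whereas B2 and B5 were both high. On 1437430_at it read 3.91, 7.24, 3.22, 3.54 and 5.61 in B1 to B5, against 4.12, 3.86, 4.20, 6.03 and 4.62 in V1 to V5. Gpr143, a melanosomal G protein-coupled receptor that sets melanosome size and number, read 4.52, 7.59, 3.62, 3.65 and 4.70 in B1 to B5, against 5.17, 3.86, 4.05, 6.32 and 4.57 in V1 to V5. The differences of the 2 Slc45a2 probe sets were 0.24 ± 0.78 and 0.14 ± 0.76, and that of Gpr143 was 0.03 ± 0.77, with adjusted p of 0.858, 0.921 and 0.986 by limma. Without V5 that of Slc45a2 1451055_at was 0.14 ± 0.84 and that of Gpr143 was -0.03 ± 0.83.

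Mitf had a narrower spread than the genes of the melanosome. It is the master factor of the melanocyte lineage, and other isoforms are used by other cells of the skin, mast cells and macrophages among them. Its brightest probe set, 1455214_at, read 12.20, 12.36, 11.83, 11.86 and 11.65 in B1 to B5, against 11.39, 11.72, 11.47, 11.68 and 11.67 in V1 to V5. The whole range was 0.97 units, against 3.40 to 7.10 units for the 13 probe sets of the other genes, and only B5 lay among the vehicle arrays. The difference of 0.39 ± 0.17 (SE) had an unadjusted p of 0.0454 and an adjusted p of 0.329 by limma. The other, 1422025_at, read 7.99, 8.06, 7.58, 7.59 and 7.42 in B1 to B5, against 6.75, 6.71, 6.06, 7.45 and 8.65 in V1 to V5. V5 was its highest array; the 4 other vehicle arrays lay below B1 to B4, with V4 just above B5. Its difference of 0.60 ± 0.42 (adjusted p = 0.460 by limma) was 0.99 ± 0.26 without V5 (adjusted p = 0.0819 by limma), and that of 1455214_at was 0.41 ± 0.16 (adjusted p = 0.139 by limma).

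**Figure D1:**
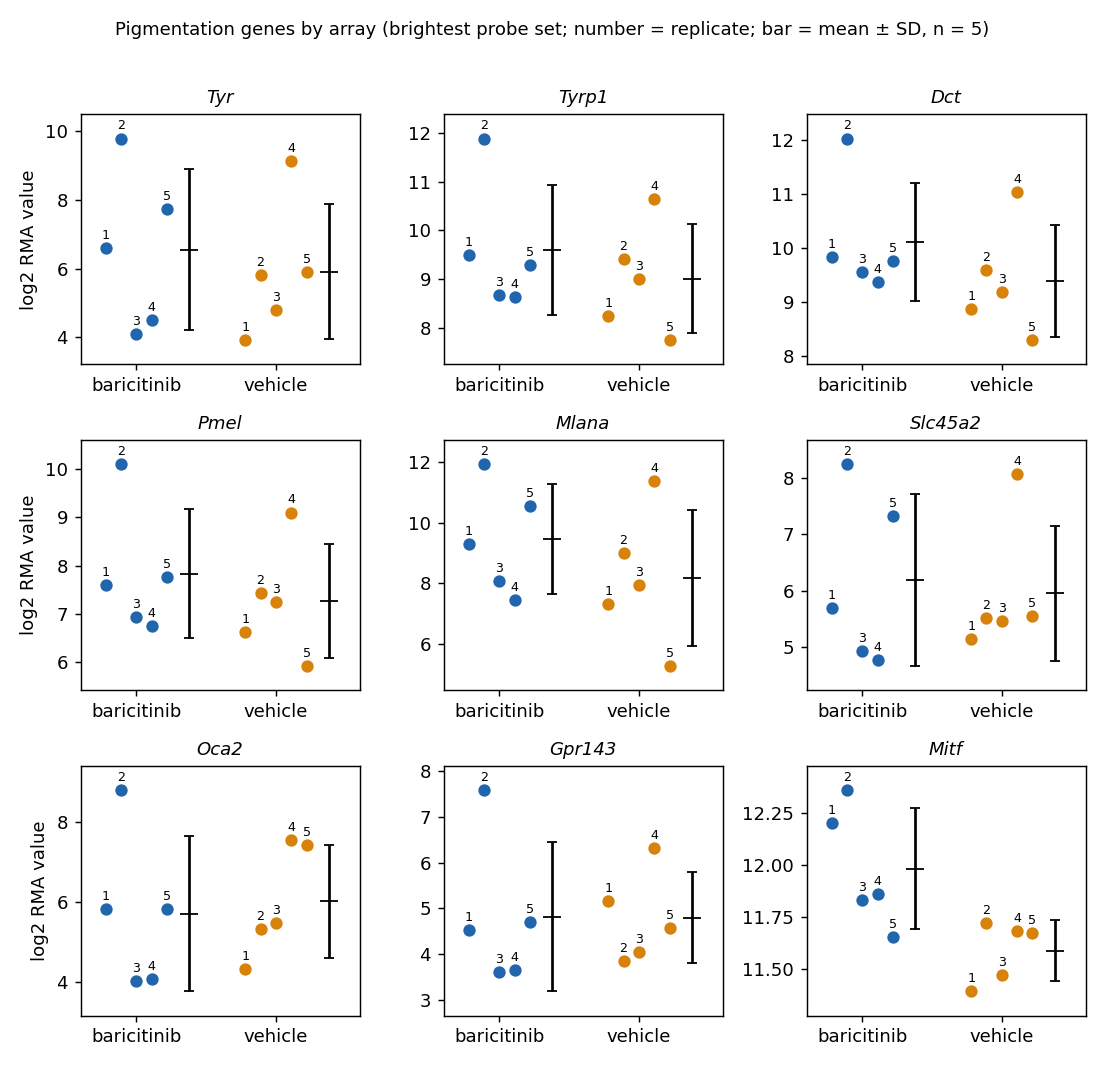
Log2 RMA value (y axes, own scale per panel) of the 9 measured pigmentation genes, each by its brightest probe set, in the 5 baricitinib arrays (blue, left) and the 5 vehicle arrays (orange, right). Points are arrays with their replicate number, and bars are mean ± SD; baricitinib replicate 2 is the highest array in every panel, and the groups overlap in every panel.

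Over all members, none of the 15 probe sets passed an adjusted p of 0.05 for baricitinib against vehicle by limma, where 0% of the 45037 probe sets did (smallest adjusted p 0.221). At an unadjusted p under 0.05 there was 1 of 15, the Mitf probe set 1455214_at, against 14.8% of all probe sets. The median difference of the members was 0.39 and 13 of 15 were positive, whereas the median of all probe sets was -0.07 and 44.6% were positive. That baseline depended on brightness. Among the 28752 probe sets with a mean of at least 5 log2 units, the median was 0.16 and 60.8% were positive. The 12 member probe sets among them had a median of 0.57, and 11 were positive. None of the 15 had groups that did not overlap, against 5.12% of all probe sets (8.53% without V5). Without V5 the median was 0.24 with 14 positive, 2 members (both Mitf) had an unadjusted p under 0.05 against 27.9% of all probe sets, and still 0 of 45037 passed the adjusted threshold. Without B2, the highest array of the members, the median was -0.18 and 6 of 15 were positive. In whole skin, fewer melanocytes and less RNA per melanocyte cannot be told apart. With the 3′ to 5′ gap as a further term, the median was -0.55 and only the 2 Mitf probe sets were positive, with 0 members and 0 of all probe sets past the threshold; since B1 to B5 all had narrow gaps and 4 of 5 vehicle arrays did not, this quality measure is largely confounded with the groups.

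**Figure D2:**
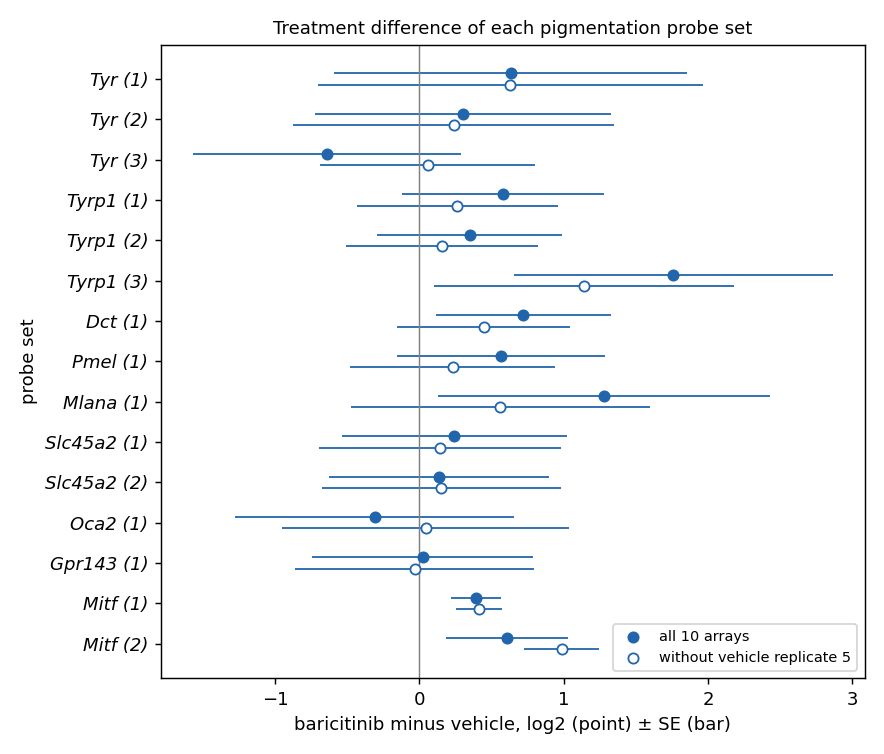
Baricitinib minus vehicle difference in log2 units (x axis) of each of the 15 pigmentation probe sets (y axis, numbered within a gene from the highest baricitinib mean down), where filled points use all 10 arrays and open points omit V5; bars are the SE from limma. The bars cross 0 for Tyr, Pmel, Oca2, Slc45a2, Gpr143 and Tyrp1 1415861_at and 1439409_x_at in both sets of arrays, and for Dct and Mlana only without V5. The Mitf differences of 0.39 and 0.41 on 1455214_at have the shortest bars.

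The members were high and low in the same arrays. B2 was the highest baricitinib array for all 15 probe sets and the highest of all arrays for 13, the exceptions being Tyr 1448821_at and Mitf 1422025_at, where V5 was higher. V4 was the highest of V1 to V4 for 14 of 15. The mean member deviation was taken over the 9 genes, each by its brightest probe set, as deviation from that probe set's own mean. It stood at 0.10, 2.51, -0.94, -1.01 and 0.49 in B1 to B5, against -1.02, -0.28, -0.62, 1.64 and -0.87 in V1 to V5. Both groups thus held 1 array far above the rest. V4 was also the only vehicle array with a narrow 3′ to 5′ gap, 1.01 log2 units against 2.0 to 4.35 in the others. B2, at 1.18, had the widest gap of the baricitinib arrays. The part of RNA quality in the height of V4 was not tested. As a description over 10 arrays, and counting each of the 9 genes by its brightest probe set, the 36 pairs of genes had a median Pearson r of 0.81 (range 0.35 to 0.99). The median was 0.90 without V5 and 0.69 without B2. The pairs of Mitf with the 8 others were lower, with a median of 0.50 (0.35 to 0.65), and 0.16 without B2. Probe sets of the same gene, 8 pairs in all, had a median r of 0.92 (0.58 to 0.98).

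**Figure D3:**
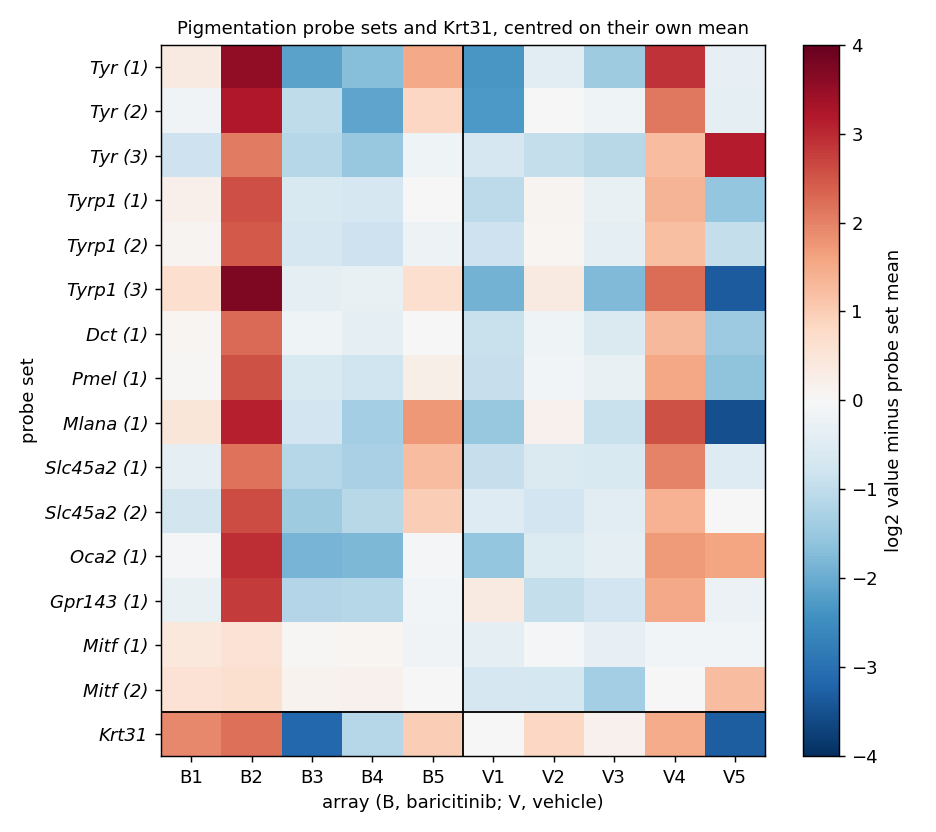
Deviation of each pigmentation probe set and of Krt31 (rows, numbered within a gene from the highest baricitinib mean down) from its own mean over 10 arrays, in log2 units (colour, red high, blue low), for baricitinib arrays B1 to B5 and vehicle arrays V1 to V5 (columns). Columns B2 and V4 are red in nearly every pigmentation row, V5 is mixed, and the 2 Mitf rows are pale.

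Krt31, an acidic keratin of the hair shaft cortex, was used as an RNA marker of the hair shaft. Its relation to hair growth in these mice was not tested. Its single probe set read 12.63, 12.89, 7.55, 9.55 and 11.69 in B1 to B5, against 10.68, 11.51, 10.88, 12.19 and 7.40 in V1 to V5. The 2 highest pigment arrays, B2 and V4, ranked 1 and 3 of 10 for Krt31, but the order was not the same throughout. B1 ranked 2 for Krt31 and 4 for the members, and V1, at rank 7 for Krt31, had rank 10 for the members.

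Most members were higher where Krt31 was higher, but none passed the threshold in the fitted slope. Of 15 probe sets, 13 had a positive slope and none had an adjusted p under 0.05 by limma, where 0.782% of 45036 probe sets (352) did. At an unadjusted p under 0.05 there were 9, all positive, against 11.7% of all probe sets that were positive and as small. The median slope was 0.39 log2 units per unit of Krt31 over the members and -0.005 over all probe sets. Among probe sets with a mean of at least 5 log2 units, it was 0.44 over the members and 0.061 over all, where 64.6% were positive. Mlana had the steepest slope, 0.83 ± 0.19 (SE; adjusted p = 0.0935 by limma). Tyrp1 followed with 0.76 ± 0.23, 0.46 ± 0.13 and 0.39 ± 0.12 on its 3 probe sets (adjusted p of 0.163, 0.142 and 0.178 by limma). The brightest Tyr probe set had 0.68 ± 0.25, Pmel 0.47 ± 0.13 and Dct 0.37 ± 0.13, with adjusted p of 0.198, 0.141 and 0.191 by limma. Slopes of 0.42 ± 0.16 for Slc45a2 on 1451055_at, 0.37 ± 0.17 for Gpr143 and 0.32 ± 0.24 for Oca2 had larger errors for their size. The 2 Mitf probe sets were nearly flat, at 0.05 ± 0.05 and -0.09 ± 0.12, as was Tyr 1448821_at at -0.04 ± 0.25.

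With the group as a further term, so that only differences within a group count, the slopes hardly moved: Mlana had 0.81 ± 0.18 (adjusted p = 0.0894 by limma), Pmel 0.46 ± 0.13 and Dct 0.35 ± 0.12. None of the 15 passed, against 0.926% of all probe sets. Without V5 all 15 slopes were positive with a median of 0.52, and 11 had an unadjusted p under 0.05, against 5.19% of all probe sets that were positive and as small, but again none passed the adjusted threshold, which 0.58% did. The count depended on B3, the other array with a very low Krt31. Without it, 6 members passed (the 3 of Tyrp1, Dct, Pmel and Mlana), each with a positive slope, but so did 18% of all probe sets in that direction.

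Rank correlation gave a closer relation than the straight line. The permutation test used 100000 permutations of the arrays for each of 45036 probe sets, two-sided, with Benjamini-Hochberg adjustment over all of them. Tyrp1 1415861_at had a Spearman rho of 0.927 with Krt31 over 10 arrays (permutation p = 0.00035, adjusted p = 0.0442) and a Pearson r of 0.752 (permutation p = 0.013, adjusted p = 0.144), which was 0.781 without V5 and B3, the 2 arrays farthest from the median in Krt31. The probe set 1439409_x_at had the same rho and adjusted p, with r of 0.704. These 2 of the 15 were past the threshold by rank, where 0.886% of all probe sets were, and none was by Pearson r, where 2.13% were. Without V5 both had a rho of 0.9. Pmel followed with a rho of 0.915 (permutation p = 0.00064, adjusted p = 0.0607) and an r of 0.753 (permutation p = 0.014, adjusted p = 0.148), with r of 0.782 without V5 and B3. Mlana and Dct both had a rho of 0.879 (adjusted p = 0.0897 by permutation), with r of 0.803 (permutation p = 0.00471, adjusted p = 0.0992) for Mlana and 0.672 (permutation p = 0.0294, adjusted p = 0.193) for Dct. Without V5 and B3 these r were 0.828 for Mlana and 0.727 for Dct. Over the 15 probe sets the median r was 0.63 (range -0.23 to 0.80), 0.67 without V5, 0.54 without B2 and 0.74 without V5 and B3, so it did not rest on those 2 arrays.

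**Figure D4:**
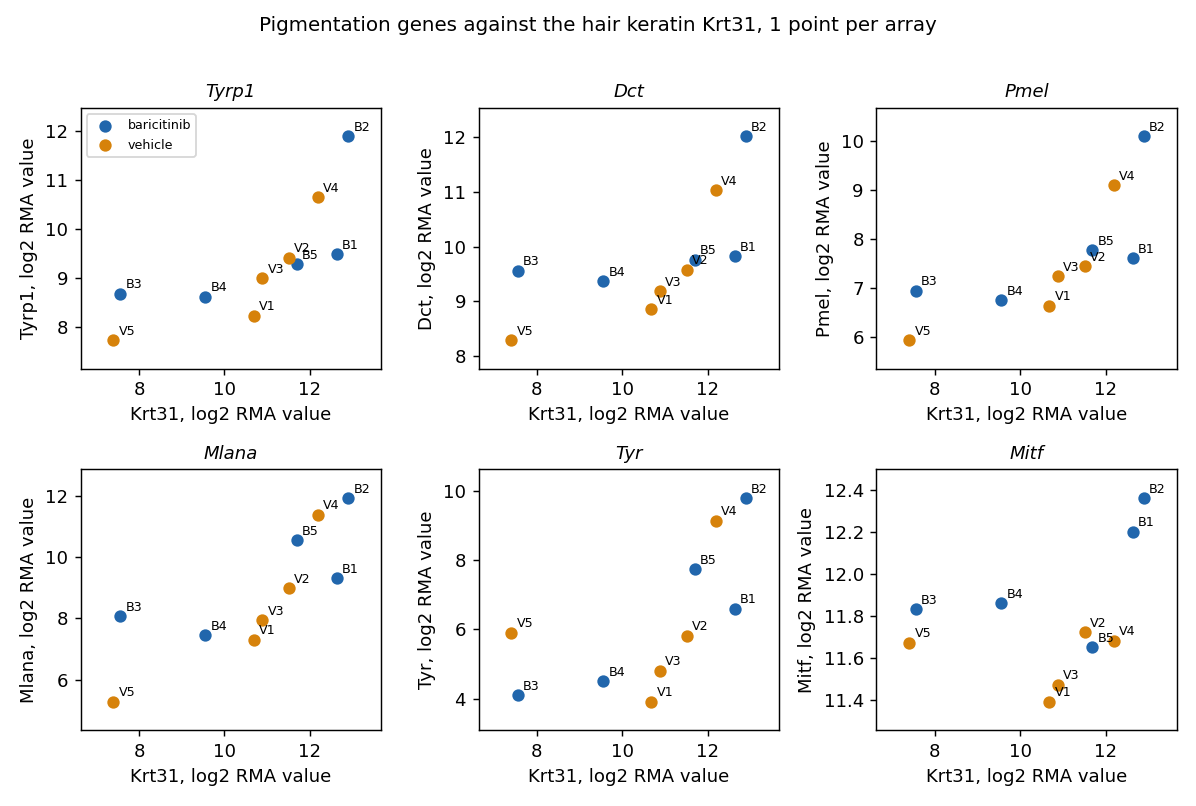
Log2 RMA value of 6 pigmentation genes (y axes, brightest probe set) against the hair keratin Krt31 (x axes), 1 point per array, baricitinib in blue and vehicle in orange. Tyrp1, Dct, Pmel and Mlana are highest in B2 and V4 at the right, B1 lies well below B2 at nearly the same Krt31 value, and Mitf has no clear slope.

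The pigment genes and the hair keratins moved apart between some pairs of arrays and alike between others. The 8 pairs described were chosen after their values were seen and show no general rule. B1 and B2 had nearly equal Krt31, and the 12 measured hair shaft keratins were higher in B2 than in B1 by 0.16 to 0.76 log2 units, whereas the 13 member probe sets other than Mitf were higher in B2 by 2.20 to 3.37. In B4 against B3 the keratins were higher by 0.71 to 3.22 (median 2.04), whereas the members differed by -1.10 to 0.41 (median -0.14). These ranges did not meet. In V4 against V2 the median was 2.17 for the members and 0.61 for the keratins, and in V4 against V1 it was 2.47 for the members and 1.45 for the keratins, with overlapping ranges. The other 4 pairs also overlapped, with medians for members and keratins of 1.11 and 0.78 in B2 against V4, 1.32 and 1.84 in B5 against B4, 0.90 and 0.89 in V2 against V1, and 0.44 and 0.24 in V3 against V1.

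The wider pigment pathway was read from 4 further lists, each gene by its brightest probe set. Of 10 melanocyte lineage factors and receptors, 6 were positive for baricitinib against vehicle with a median of 0.24, and none passed the threshold. Kit, the receptor that melanocyte precursors need, had the largest difference over all arrays. It read 8.12, 8.39, 7.68, 7.60 and 7.65 in B1 to B5, against 7.13, 7.07, 7.07, 8.07 and 4.02 in V1 to V5, so that only V4 of the vehicle arrays reached the baricitinib range. Its difference was 1.21 ± 0.64 (SE; adjusted p = 0.382 by limma), and 0.55 ± 0.25 without V5. Without V5 the largest was that of Tfap2b, an AP-2 factor, at 1.38 ± 0.34 (adjusted p = 0.0773 by limma), against 1.17 ± 0.38 with it (unadjusted p = 0.0112, adjusted p = 0.249 by limma). Ednrb, the endothelin receptor of the lineage, was the one gene of the list whose slope on Krt31 passed with the group as a term (0.31 ± 0.06, adjusted p = 0.0423 by limma). Without that term it had 0.32 ± 0.07 (adjusted p = 0.0783 by limma), and with it but without V5 0.27 ± 0.06 (adjusted p = 0.110 by limma). By the permutation tests Ednrb passed by rank (rho = 0.927, adjusted p = 0.0442), where 0.886% of all probe sets did. It did not pass by Pearson r (r = 0.843, adjusted p = 0.0657). Sox10, the factor that melanocytes share with Schwann cells, read 8.06, 8.29, 8.6, 8.12 and 7.2 in B1 to B5, against 8.61, 8.29, 8.73, 7.41 and 7.78 in V1 to V5. Unlike the members, it was not highest in B2 and was low in V4. The list was mixed in this respect. Pearson r with the mean member deviation over 10 arrays was 0.78 for Mc1r, 0.70 for Ednrb and 0.50 for Kit. It was 0.30 for Erbb3, 0.26 for Pax3, 0.23 for Tfap2b and 0.03 for Tfap2a. It was -0.40 for Sox10, -0.45 for Zeb2 and -0.61 for Snai2.

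Of 9 measured signals that act on melanocytes or set pigment type, 4 were positive, with a median of -0.01, and none passed for treatment; without V5, 2 were positive, with a median of -0.13. Corin, a protease of the dermal papilla that limits agouti activity in the mouse, was the only one to pass in the limma slope on Krt31, with 0.72 ± 0.12 (adjusted p = 0.0203 by limma). Without V5 its slope was 0.71 ± 0.15 (adjusted p = 0.0957 by limma), and the gene that passed that fit was Slc7a11, the cystine transporter used for pheomelanin, with 0.54 ± 0.09 (adjusted p = 0.0369 by limma). By the permutation test of Pearson r, Corin (r = 0.891, adjusted p = 0.0331) and Atrn, the attractin that agouti signalling needs (r = 0.821, adjusted p = 0.049), passed over all 10 arrays. In that test 2.13% of all probe sets passed. By rank neither passed (adjusted p of 0.0724 for Corin and 0.141 for Atrn by permutation). Without V5, the lowest array of both, r was 0.843 for Corin and 0.772 for Atrn. Slc7a11 had 5.29, 6.13, 3.16, 3.87 and 5.39 in B1 to B5, against 5.32, 6.03, 5.61, 5.87 and 5.41 in V1 to V5. B3 and B4 were far below the other 8 arrays, and the difference of -0.88 ± 0.51 did not pass (adjusted p = 0.409 by limma). Asip, the agouti signal itself, had no probe set of its own symbol and was not analysed here.

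Melanosome biogenesis and trafficking genes, many of which serve lysosomes in every cell, had 12 of 22 positive with a median difference of 0.07, but 5 of 22 and -0.19 without V5. None passed for treatment or in the limma slope on Krt31. By the permutation test of Pearson r with Krt31, Rabggta, a subunit of the enzyme that prenylates Rab proteins, passed (r = 0.814, adjusted p = 0.0105). In that test 2.13% of all probe sets passed. By rank Rabggta did not pass (rho = 0.891, adjusted p = 0.0754 by permutation). V5 was its lowest array, at 7.9, and r was 0.918 without V5. Gpnmb, a melanosomal and macrophage glycoprotein, had the largest difference of the list over all arrays, 1.47 ± 0.85 (adjusted p = 0.407 by limma), which was 0.67 ± 0.49 without V5. Trpm1, a channel gene that Mitf drives, read 6.08, 8.52, 5.52, 5.57 and 6.8 in B1 to B5, against 6.01, 6.52, 7.18, 7.70 and 6.03 in V1 to V5, with B2 and V4 on top as in the members. Of 5 melanosome transport genes, 3 were positive, with a median of 0.22 (0.09 without V5). Myo5a, the myosin motor that carries melanosomes along actin, was related to Krt31 by both permutation tests (r = 0.860, adjusted p = 0.00808, and rho = 0.964, adjusted p = 0.0119). Of all probe sets, 2.13% passed by r and 0.886% by rank. For Myo5a r was 0.774 without V5 and 0.843 without V5 and B3, whereas its limma slope did not pass (0.14 ± 0.04, adjusted p = 0.152 by limma). Mlph, melanophilin of the complex that tethers melanosomes to actin, read 6.46, 7.21, 7.11, 7.05 and 6.43 in B1 to B5, against 5.63, 6.02, 5.45, 6.52 and 5.51 in V1 to V5. Only V4 lay within the baricitinib range. Its difference of 1.03 ± 0.26 had the smallest unadjusted p of the 4 lists, yet did not pass (unadjusted p = 0.00254, adjusted p = 0.224 by limma; 0.0829 without V5), and its slope on Krt31 was 0.05 ± 0.11.

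The hair lists read in the same fits set the scale. Of 11 hair shaft keratins other than Krt31, 10 passed on Krt31 with a median slope of 1.12, and 7 of 10 hair matrix regulators passed with a median of 0.57, against a median of 0.42 and none for the 9 members by their brightest probe sets. Without V5 these counts were 10 of 11 and 4 of 10. Neither list had a gene past the threshold for treatment, and the median difference of the keratins, 0.82, was -0.14 without V5. Over all arrays Krt83, a hair keratin of the shaft, had the largest difference of its list (1.29 ± 1.24, adjusted p = 0.544 by limma), but without V5 it had 0.62 ± 1.18 and the largest was that of Krt35, at -1.44 ± 1.15. Among the matrix regulators Fgf5, the factor that ends hair growth, had the largest (1.24 ± 0.98, adjusted p = 0.491 by limma), but 0.71 ± 0.93 without V5, where the largest was that of Shh, at -1.39 ± 1.14.

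**Figure D5:**
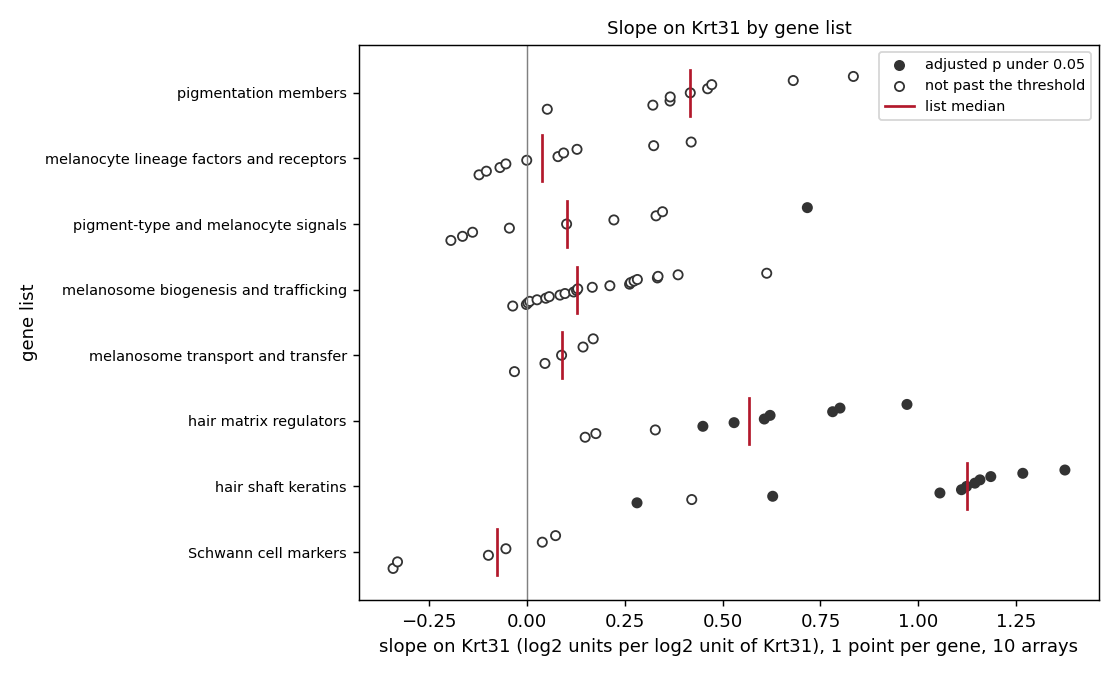
Slope on Krt31 over 10 arrays, in log2 units per log2 unit of Krt31 (x axis), for the genes of 8 lists (y axis), 1 point per gene by its brightest probe set; filled points passed an adjusted p of 0.05 by limma, and red bars are list medians. The hair shaft keratins centre on 1.12, the hair matrix regulators on 0.57 and the pigmentation genes on 0.42, and none of the pigmentation points is filled.

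Markers of other cells were read beside the members. Of 6 measured Schwann cell markers, which share lineage genes with melanocytes, 5 were positive for treatment and none passed; S100b had the largest difference over all arrays (0.94 ± 0.43, adjusted p = 0.343 by limma), and without V5 Cdh19 had (1.04 ± 0.51). Their mean level was 8.71 to 9.82 in B1 to B5, against 8.18 to 9.07 in V1 to V5, and it was lowest in V4, where the members were high. The 6 macrophage markers, of which 4 were positive, had mean levels of 10.45 to 11.01 in B1 to B5, against 10.60 to 10.73 in V1 to V4 and 9.59 in V5; Cd163 had the largest difference (1.02 ± 0.31, adjusted p = 0.239 by limma). Of the 6 cytotoxic T cell markers 2 were positive, and Gzmb, the granule protease, had a difference of -3.92 ± 1.42 (adjusted p = 0.276 by limma). Krt1 among 4 keratinocyte markers had -1.05 ± 0.30 and Col3a1 among 4 fibroblast markers 0.37 ± 0.18, with adjusted p of 0.230 and 0.358 by limma. B2, the array with the highest members, had a low T cell mean (6.25), whereas V4 had the highest of all (9.32). The markers within that mean differed. Of V1 to V4, V4 had the lowest Cd8a (10.17) and Cd3e (10.58), and the highest Cd8b1, Cd3g, Gzmb and Prf1. The part of other cell types in the members' values was not tested.

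The genes whose pattern was most like that of the members were found by Pearson r over the 10 arrays with the mean member deviation, each of 18184 genes by its brightest probe set. The highest were Nop58 (r = 0.956), Dclk3 (0.956), Ptch1 (0.955), Dlx1as (0.952), Suv39h2 (0.936), Wnt5a (0.934), Sinhcaf (0.932), Stra6 (0.921), Dlx1 (0.918) and Cldn10 (0.917), with r of 0.915 to 0.962 without V5. Ptch1 is the receptor of Sonic hedgehog, and Wnt5a is a Wnt ligand. Dclk3 showed the shared order, with 6.93, 8.07, 4.86, 5.12 and 6.8 in B1 to B5, against 5.45, 6.02, 5.53, 7.46 and 5.44 in V1 to V5. Among the fixed lists, Lef1, a Wnt effector of the hair matrix, ranked 12th with r of 0.911 and Trpm1 ranked 23rd with 0.892. Krt31 itself ranked 319th with r of 0.71. These genes were chosen for their likeness over 10 arrays, so the values carry no test.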

How the data were processed

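Whole skin RNA was amplified, labelled and hybridised to Affymetrix mouse arrays. The authors normalized the prevention arrays together by RMA and deposited log2 values, which hold relative signal and no counts; the number of arrays limits the precision. Of 45101 probe sets, 64 controls were set aside. Of the rest, 34945 had 1 gene symbol in the platform annotation, 932 several and 9160 none.

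Differences (baricitinib minus vehicle) and slopes on Krt31 were fitted with limma 3.58.1 (R 4.3.3), two-sided, with Benjamini-Hochberg adjustment over all probe sets and a threshold of 0.05; the fits were tested on simulated data. Members and gene lists were chosen with earlier results of these data known. Named genes were every member, Krt31, the gene with the largest difference in each other list (up to 3 where any passed) and the 10 genes most like the members. Ednrb, Tfap2b, Sox10, Corin, Atrn, Trpm1, Rabggta, Myo5a, Krt35, Shh, Cdh19 and Lef1 were also named after their values were seen. So were Mc1r, Erbb3, Pax3, Tfap2a, Zeb2 and Snai2, which complete the list of lineage factors and receptors. Alternatives were other normalizations, centring, array weights, a mean of at least 5 log2 units, leaving out probe sets marked as less specific, eBayes options, an RNA quality term, the replicate block, other keratin measures and each array left out.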

Additional observations from a re-analysis of the deposited data

Results flagged for a closer look

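Of 32 groups of 5 arrays tested for a single far array (15 member probe sets and Krt31, in each group), 6 had one, and chance gives about 1 in 20. In the baricitinib group replicate 2 stood far above the other arrays of its group for the 3 Tyrp1 probe sets, at 11.89 on 1415861_at, 9.74 on 1415862_at and 11.66 on 1439409_x_at. The same array stood apart for Dct, at 12.02, and for Gpr143, at 7.59. In the vehicle group replicate 4 stood apart for Slc45a2 on 1451055_at, at 8.07. These probe sets share arrays, so the 6 are not independent of each other.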

How the results depend on the processing

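The treatment result for the members (0 of 15 past the threshold) was the same under every alternative run except array quality weights, which gave V5 a weight of 0.029; then 1 member passed, Mitf 1422025_at (1.15), among 9676 probe sets (21.5%). Leaving out each array in turn gave 0 members throughout and 0 to 848 probe sets, 848 without V4, and the members' median difference ranged from -0.18 (without B2) to 0.77. With RNA quality as a covariate the difference turned negative in 11 probe sets: Tyrp1 -0.50, -0.75 and -0.52, Tyr -1.05 and -0.73, Dct -0.35, Gpr143 -0.64, Pmel -0.57, Mlana -1.06, and Slc45a2 -0.37 and -0.80. With array weights Oca2 was 0.37 and Tyr 1448821_at 0.15, and with centring on the array median Gpr143 was -0.046. Leaving out 1 array turned the sign of 9 probe sets, whose ranges were -0.18 to 1.44 for Tyr 1417717_a_at, -0.47 to 0.87 for 1456095_at and -1.24 to 0.059 for 1448821_at; -1.09 to 0.11 for Oca2; -0.67 to 0.41 for Gpr143; -0.0017 to 1.02 for Pmel; -0.22 to 0.70 for Tyrp1 1439409_x_at; and -0.50 to 0.51 and -0.27 to 0.77 for Slc45a2.

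For the slope on Krt31, 352 probe sets and 0 members passed. The number of probe sets was 207 with quantile normalization, 3242 with array weights, 774 with the mean of the hair shaft keratins in place of Krt31, 140 without V5 and B3, 960 by the permutation test of Pearson r, and 185 to 16903 with 1 array left out (16903 without B3). The number of members was 3 with array weights (Tyr 1417717_a_at, Oca2 and Mlana; 7.2% of all probe sets), 1 with Krt33b (Mlana; 1.07%), 1 with the keratin mean (Mlana; 1.72%), 2 by the permutation test of Spearman rho, and 0 to 6 with 1 array left out. Within groups, 417 probe sets passed in the main fit, against 216 with quantile and 276 with cyclic loess normalization, 1841 with array weights, 207 with the RNA quality term, 174 without V5 and B3, and 194 to 11825 with 1 array left out (11825 without B3); 1 member passed with array weights (Tyr 1417717_a_at; 4.09%) and 0 to 4 with 1 array left out. The near-flat slopes changed sign. Tyr 1448821_at had 0.14 with loess, 0.39 with array weights, 0.018 with the RNA quality term, 0.81 without V5 and B3, and -0.23 to 0.45 with 1 array left out; within groups it had 0.15, 0.30 and 0.81 under loess, array weights and without V5 and B3, and -0.24 to 0.46 with 1 array left out. Mitf 1422025_at had 0.036 with array weights, 0.30 without V5 and B3, and -0.16 to 0.065 with 1 array left out; within groups 0.088, 0.22 and -0.20 to 0.11. Mitf 1455214_at had -0.0022 with loess, and -0.0045 within groups. The causes were not tested.

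Same-numbered arrays of the groups did not deviate together (r of -0.227 to 0.0885). The labels give them only a shared number, and whether they shared a donor, graft day or batch was not tested. With the replicate block, 0 probe sets passed for treatment, 22 for the slope and 37 within groups, with 0 members in each. The 3 dimmest probe sets, of Tyr, Slc45a2 and Gpr143, averaged under 5 log2 units. A second Krt31 probe set could not be tried, as the annotation gives 1.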
